A study of Rattus norvegicus with 4 samples.

Results

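The genes described here are 42 named antioxidant and redox defence genes. They were chosen by gene name and not by their measured values, though with earlier results of these data known. They take in the NRF2-KEAP1 regulators, enzymes of quinone and haem breakdown, glutathione synthesis, the pentose phosphate pathway, the thioredoxin system with Txnip, peroxiredoxins, glutathione peroxidases, superoxide dismutases, catalase, glutaredoxins, glutathione transferases and ferritin. Of the 42 names, 38 are among the 15172 genes of the table, and 37 passed the filter on low counts, which left 13953 genes for testing. Gpx8 was removed by that filter, with counts of 5 and 1 in siScramble-treated and 2 and 4 in siTbk1-treated cells, and Pgd, Srxn1, Gpx7 and Gstp1 were not analysed here.

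RNA was sequenced from rat INS-1 832/13 cells, a clonal insulinoma line that secretes insulin in response to glucose and serves as a β-cell model. The siTbk1-treated cells (2 samples) were transfected for 36 h with a pool of siRNAs against Tbk1, which encodes TANK-binding kinase 1, and the siScramble-treated control cells (2 samples) with non-targeting siRNA for the same time. Both groups received the DharmaFECT transfection reagent and were grown in medium with serum and β-mercaptoethanol, a thiol reducing agent that all 4 samples therefore share. The comparison asks how transcripts of β-cells change when Tbk1 is depleted. The samples carry the replicate numbers 2 and 3, and the labels do not say that they are separate cultures, so that p-values measure only the spread between these samples, which may be technical. The cells are 1 clonal tumour line, and in bulk RNA a change in the number of cells that express a gene and a change in RNA per cell cannot be told apart.

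Cells oppose oxidants with linked systems. The transcription factor NRF2 (Nfe2l2) is held at low levels by KEAP1, which targets it for degradation, and when oxidants or electrophiles modify KEAP1, NRF2 with a small MAF partner activates genes through the antioxidant response element. Glutathione and thioredoxin carry electrons from NADPH to the peroxidases that remove hydrogen peroxide and lipid peroxides, superoxide dismutases feed peroxide into these systems, and ferritin keeps iron from driving radical formation. Pancreatic β-cells are known for low expression of catalase and glutathione peroxidase, and for TXNIP, a glucose-induced inhibitor of thioredoxin.

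Total counts lay between 38428926 and 47759013 per library, and 3 counts then correspond to between 0.0628 and 0.0781 CPM (counts per 1000000 counts of a library). The CPM values of genes use library totals scaled by TMM factors, except those of the cell type markers, which use the plain totals. Tbk1 itself, at chr7:63655247-63687979 of the rn6 build, was at 53.7 and 52.5 CPM in siScramble-treated and at 11.8 and 13.3 CPM in siTbk1-treated cells, a log2 fold change of −2.08 ± 0.076 (SE, adjusted p = 3.7e-08, edgeR quasi-likelihood test). The β-cell identity of the line was checked on 8 marker genes, all of which were in the table, and their summed level was 19160 to 20200 CPM in siScramble-treated and 14410 to 16050 CPM in siTbk1-treated cells. Ins1 (10512 and 11320 against 7407 and 6132 CPM) was the largest part of that sum and most of its difference. Slc2a2 (1327 and 1243 against 979 and 950 CPM), Ins2 and Pdx1 were also lower in both siTbk1 libraries. Iapp (933 and 1009 against 1192 and 1244 CPM), Pcsk1 and Nkx6-1 were higher in both, and Chga overlapped. Of the markers of other islet endocrine cells, Gcg alone was in the table (1 of 5), at 1341 to 1406 CPM in siScramble-treated and 803 to 862 CPM in siTbk1-treated cells. Markers of acinar cells (1 of 5 in the table), fibroblasts (1 of 5) and leukocytes and endothelial cells (2 of 5) were summed for each list separately. None of these sums exceeded 8.82 CPM in any library. Counts of mitochondrially encoded genes made up 6.09% to 6.28% of siScramble and 7.92% to 8.38% of siTbk1 libraries. The part of these shifts in the changes of the redox genes was not tested.

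Redox transcripts moved in both directions and mostly by less than 1.5-fold. In the sentences that follow, a gene rose or fell where its adjusted p was under 0.05 (edgeR quasi-likelihood test, Benjamini-Hochberg over 13953 genes), and it was called where the fold change was also at least 1.5. Only Nqo1 was called higher and only Ftl1 lower, each 2.7% of the 37 genes tested, against 4.81% of all genes tested called higher and 6.18% called lower. By the adjusted p alone, 10 of the 37 genes rose (27%, against 24.4% of all genes) and 15 fell (40.5%, against 24.8% of all genes), and 12 did not pass. Both siTbk1 libraries lay above both siScramble libraries for 14 genes (37.8%, against 38.7% of all genes) and below both for 19 (51.4%, against 37.9%), and the groups overlapped for Bach1, Gsr, Sod1 and Glrx2. The median log2 fold change of the 37 genes was −0.068, beside 0.0071 over all genes tested. An absolute log2 fold change of at least 0.4 was seen for 10 of them (27%), and for 28.9% of all genes. A correction for gene length, given at the end, turned the split of 10 genes that rose and 15 that fell into 13 and 12.

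**Figure D1:**
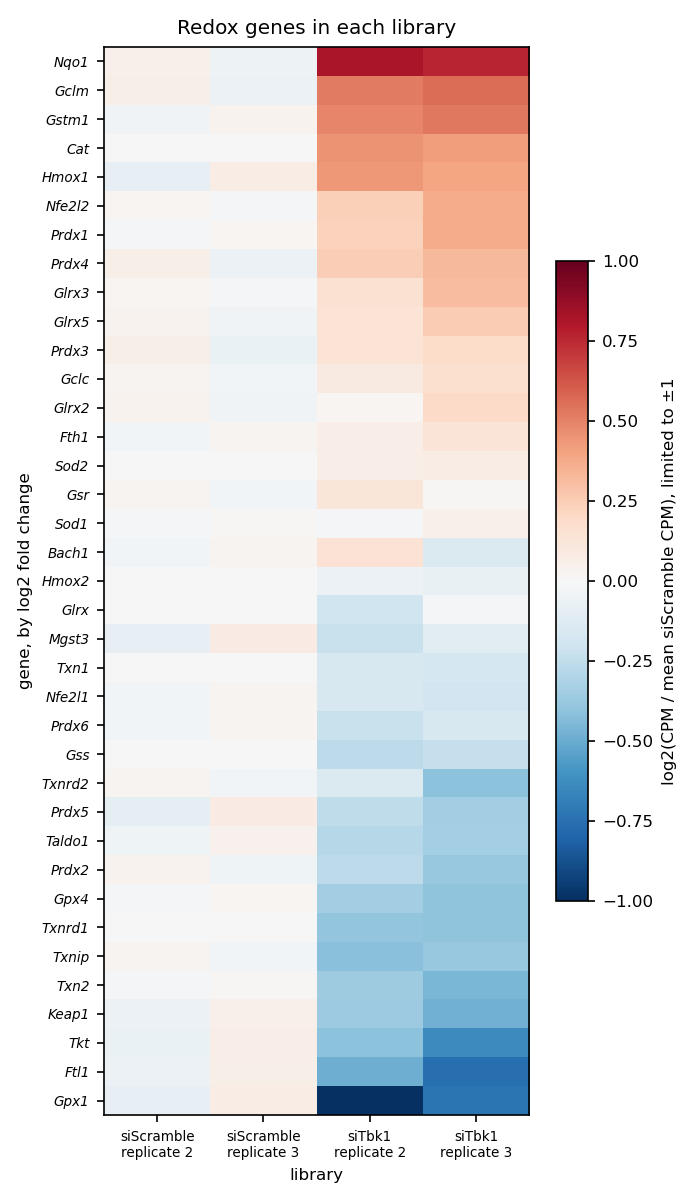
Log2 of the CPM of each of the 37 redox genes tested over its mean siScramble CPM, with colours limited to ±1, the genes in rows by log2 fold change and the 4 libraries in columns. Nqo1, Gclm, Gstm1, Cat and Hmox1 are at the top, red in both siTbk1 libraries, and Tkt, Ftl1 and Gpx1 at the bottom, blue in both.

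**Figure D2:**
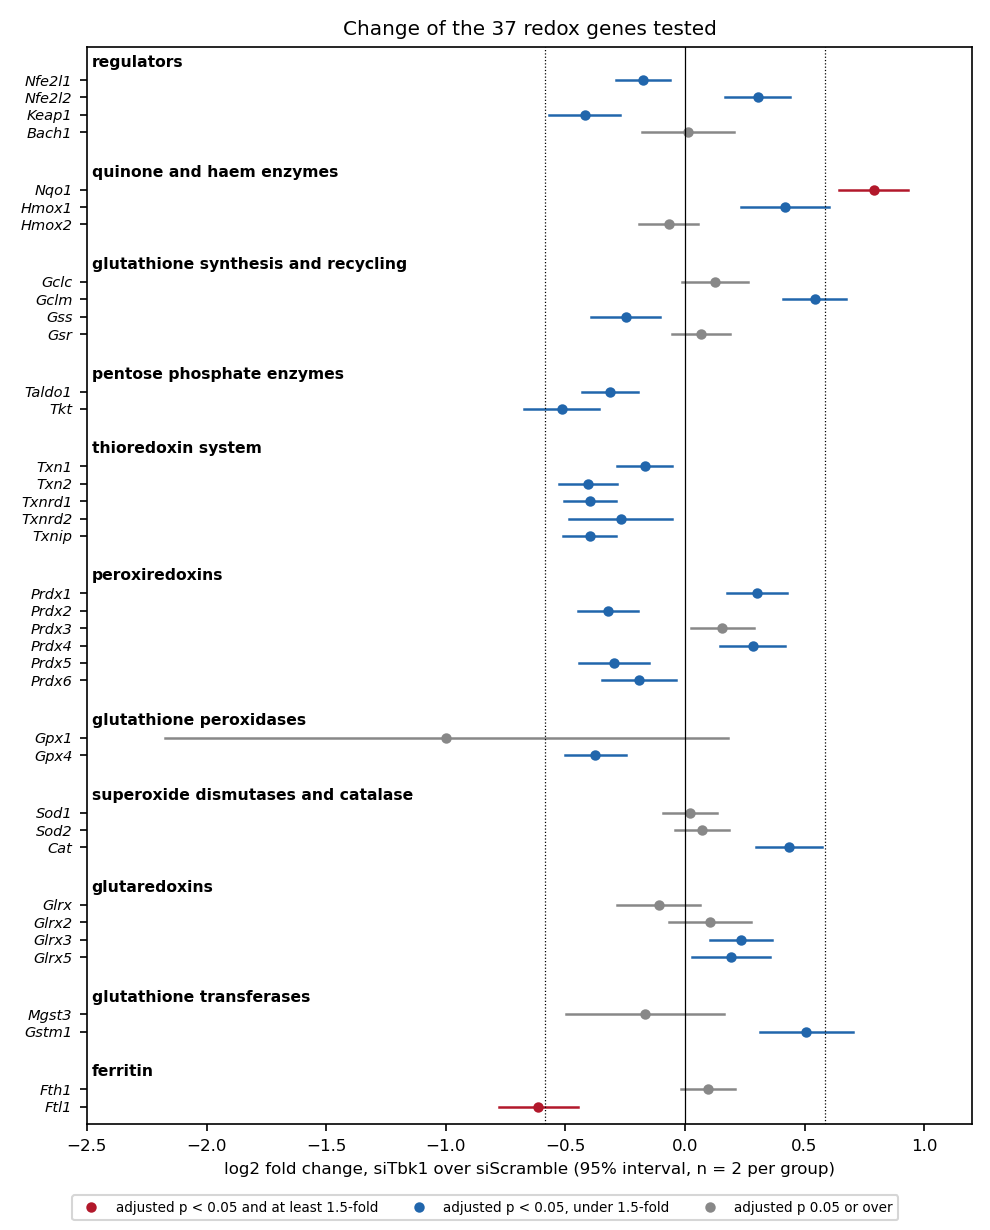
Log2 fold change of the 37 genes tested, siTbk1 over siScramble, with 95% intervals (n = 2 per group) and dotted lines at a fold change of 1.5 in either direction. Nqo1 (0.79) and Ftl1 (−0.61) lie past these lines with an adjusted p under 0.05, and the wide interval of Gpx1 comes with counts of 5 to 12 per library.

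Among the regulators, Nfe2l2 rose and Keap1 fell, while Nfe2l1 fell slightly and Bach1 did not pass. Keap1, the adaptor that delivers NRF2 to a CUL3 ubiquitin ligase, was at 46.5 and 50.1 CPM in siScramble-treated and at 37.5 and 34.6 CPM in siTbk1-treated cells (replicate 2 first, here and throughout). Both siTbk1 values lay below both control values, with a log2 fold change of −0.42 ± 0.068 (SE, adjusted p = 0.00035). Nfe2l2 moved the other way by 0.30 ± 0.063 on the log2 scale (adjusted p = 0.0018), from 63.3 and 61.4 CPM to 73.4 and 80.6 CPM. Nfe2l1, a related factor known for the control of proteasome genes, was at 174 and 180 CPM against 158 and 155 CPM, a log2 fold change of −0.17 ± 0.052 (adjusted p = 0.015). That change did not pass without siScramble replicate 3 (adjusted p = 0.098) or without siTbk1 replicate 3 (adjusted p = 0.096). Bach1, a haem-binding repressor that competes with NRF2, gave a log2 fold change of 0.01 ± 0.088 (adjusted p = 0.91), and its groups overlapped. Its counts include split reads, which means that a count in some library lay more than 0.01 from a whole number, as happens when reads match several genes.

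The enzymes of quinone and haem breakdown contained the gene with the largest increase of the 37. Nqo1, NAD(P)H quinone dehydrogenase, which reduces quinones without passing through radical intermediates, lies at chr19:38422164-38437181 (rn6, plus strand) and was at 29.8 and 27.7 CPM in siScramble-treated and at 50.5 and 48.8 CPM in siTbk1-treated cells. The lowest siTbk1 value was above the highest control value, and the level was 1.73-fold higher (log2 fold change 0.79 ± 0.066, adjusted p = 4.6e-06). It was called under each alternative except the test against a fold change of 1.5 itself (glmTreat of edgeR), where its adjusted p was 0.051. Hmox1, the inducible haem oxygenase, was at 13.4 and 14.9 CPM against 19.2 and 18.7 CPM. Its siTbk1 values again lay above the controls, with a log2 fold change of 0.42 ± 0.084 (adjusted p = 0.0015). Hmox2, the constitutive haem oxygenase, was at 62.3 and 62.2 CPM against 59.6 and 59.1 CPM. That difference of −0.07 ± 0.057 on the log2 scale (95% interval −0.19 to 0.06) did not pass the test (adjusted p = 0.35), and its counts include split reads.

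**Figure D3:**
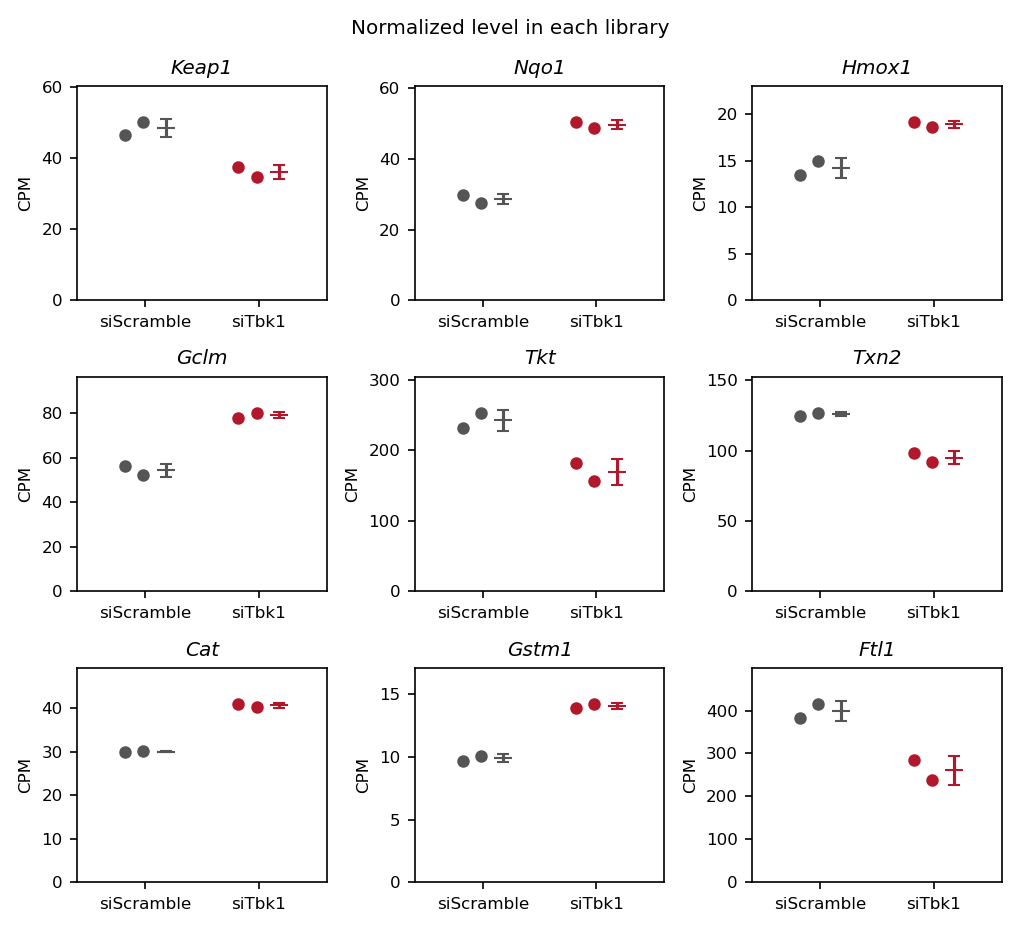
Normalized level in CPM (axis from 0) of the 9 redox genes that were called or passed the adjusted p with an absolute log2 fold change of at least 0.4 (Txnrd1 and Txnip lie just under this size). Points are libraries (replicate 2 left of replicate 3), the bar beside them is the mean ± SD (n = 2), and in each panel the groups do not overlap.

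Glutathione synthesis showed unequal changes of its enzymes. Gclm, the modifier subunit of glutamate-cysteine ligase, which catalyses the rate-limiting step, lies at chr2:225827504-225847875 (rn6, plus strand) and was at 56.3 and 52.1 CPM in siScramble-treated and at 77.9 and 80.1 CPM in siTbk1-treated cells. The groups did not overlap, and the log2 fold change was 0.54 ± 0.061 (adjusted p = 3.4e-05), just under the 1.5-fold limit. With 1 sample left out, the log2 fold change of Gclm ran from 0.49 to 0.60. The catalytic subunit Gclc differed by 0.13 ± 0.063 (95% interval −0.01 to 0.26, adjusted p = 0.12). Gss, glutathione synthetase, which catalyses the last step, fell by 0.25 on the log2 scale (adjusted p = 0.0085). Gsr, the NADPH-dependent reductase that recycles oxidised glutathione, was at 185 and 178 CPM against 198 and 183 CPM. These groups overlapped, the log2 fold change of 0.07 ± 0.056 did not pass (adjusted p = 0.34), and the counts include split reads.

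Tkt and Taldo1, enzymes of the non-oxidative pentose phosphate branch, which interconverts the sugar phosphates downstream of the NADPH-producing steps, fell. Of the other tested enzymes of that branch, taken from the wider list described later, Rpe was called higher and Rpia did not pass (log2 fold change −0.09, adjusted p = 0.29). Tkt, transketolase, lies at chr16:6609668-6634596 (rn6, plus strand) and was at 231 and 253 CPM in siScramble-treated and at 183 and 156 CPM in siTbk1-treated cells. Transketolase thus fell by 0.52 on the log2 scale (SE 0.073, adjusted p = 0.00014). With 1 sample left out, its log2 fold change ran from −0.65 to −0.41. Taldo1, transaldolase, fell by 0.31 on the log2 scale (SE 0.054, adjusted p = 0.00052), also with no overlap between the groups.

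The 5 tested genes of the thioredoxin system all fell, and for each of them both siTbk1 libraries lay below both controls, where 24.8% of all genes fell and 37.9% had both siTbk1 libraries below both controls. Txnip, the arrestin-family protein that binds and inhibits thioredoxin, lies at chr2:198683159-198686975 (rn6, plus strand) and was at 575 and 554 CPM in siScramble-treated and at 424 and 434 CPM in siTbk1-treated cells. This is a log2 fold change of −0.40 ± 0.051 (adjusted p = 7.2e-05), or 24.1% lower. Txnrd1, the cytosolic selenoenzyme that reduces thioredoxin, was at 382 CPM in both siScramble and at 290 CPM in both siTbk1 libraries, a log2 fold change of −0.40 ± 0.049 (adjusted p = 5.9e-05). Txn2, mitochondrial thioredoxin, was at 125 and 127 CPM against 98.1 and 91.7 CPM, with a log2 fold change of −0.41 ± 0.056 (adjusted p = 0.00012). Counts of Txn2 and Txnrd1 include split reads. The inhibitor, the thioredoxins and their reductases were lower together, by between 0.17 and 0.41 on the log2 scale. The smaller changes were less stable. Txn1, cytosolic thioredoxin (−0.17 ± 0.052, adjusted p = 0.018), did not pass when siScramble replicate 2, siScramble replicate 3 or siTbk1 replicate 3 was left out (adjusted p 0.053 to 0.10), nor after the correction for gene length (−0.08, adjusted p = 0.26). Txnrd2, the mitochondrial reductase (−0.27 ± 0.099, adjusted p = 0.039), did not pass without siScramble replicate 2 (adjusted p = 0.078) or siTbk1 replicate 3 (−0.15, adjusted p = 0.32), nor with DESeq2 (adjusted p = 0.091).

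Peroxiredoxins, the thiol peroxidases that thioredoxin or glutathione recharges, divided by member. Prdx2, a cytosolic typical peroxiredoxin, was at 473 and 448 CPM in siScramble-treated and at 383 and 354 CPM in siTbk1-treated cells, a log2 fold change of −0.32 ± 0.057 (adjusted p = 0.0006). Prdx1, its cytosolic relative, rose by 0.30 ± 0.058 (adjusted p = 0.001), from 299 and 306 CPM to 355 and 392 CPM, and its counts include split reads. The pair of cytosolic enzymes moved in opposite directions, each with no overlap between the groups. Prdx4, which works in the endoplasmic reticulum, rose by 0.28 ± 0.062 (adjusted p = 0.0025), and Prdx5, found in mitochondria, peroxisomes and cytosol, fell by 0.30 (SE 0.068, adjusted p = 0.0032). Mitochondrial Prdx3 differed by 0.16 ± 0.061 and just missed the threshold (adjusted p = 0.0503). Prdx6, the peroxiredoxin that uses glutathione, was lower by −0.19 ± 0.071 (adjusted p = 0.039), a result that was lost when any one of the 4 libraries was left out (adjusted p 0.056 to 0.17).

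Of the glutathione peroxidases, Gpx4, the selenoenzyme that reduces lipid peroxides in membranes, fell. It was at 69.1 and 71.2 CPM in siScramble-treated and at 55.0 and 53.2 CPM in siTbk1-treated cells, without overlap, a log2 fold change of −0.37 ± 0.058 (adjusted p = 0.00026), and its counts include split reads. Gpx1, the cytosolic peroxidase, had counts of only 12 and 11 in siScramble-treated and 5 and 6 in siTbk1-treated cells. A change of −0.998 ± 0.54 on the log2 scale (95% interval −2.18 to 0.18) did not pass (adjusted p = 0.15), and a difference was not detectable at this depth. Gpx1, Gpx4, Txnrd1 and Txnrd2, the 4 selenocysteine enzymes among the 37 genes, had negative log2 fold changes with a median of −0.39, and 3 of them fell (against 24.8% of all genes). Other selenoprotein genes of the wider list went both ways. Selenop was called higher (0.79, given below), and Selenof rose by 0.57 (adjusted p = 1.2e-05). Selenot (0.20, adjusted p = 0.0076), Sephs2 (0.18, adjusted p = 0.032, annotated as a pseudogene) and Txnrd3 (0.25, which did not pass) also had values above 0. Selenon (−0.52, adjusted p = 0.00099) and Selenom (−0.40, adjusted p = 0.020) fell. Of the 16 tested genes listed there for selenoprotein synthesis and other selenoproteins, 6 rose and 5 fell.

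Cat, catalase, the haem enzyme of peroxisomes that splits hydrogen peroxide, lies at chr3:93379874-93412059 (rn6, minus strand) and was at 30.0 and 30.1 CPM in siScramble-treated and at 41.0 and 40.2 CPM in siTbk1-treated cells. The replicates lay within 1 CPM of each other in both groups, and the level was 1.35-fold higher (log2 fold change 0.44 ± 0.063, adjusted p = 0.00016). Sod1, the cytosolic copper-zinc superoxide dismutase, was at 269 and 273 CPM against 269 and 281 CPM, so that the groups overlapped. Its difference of 0.02 ± 0.051 had a 95% interval of −0.09 to 0.13 (adjusted p = 0.77). Sod2, the mitochondrial manganese enzyme, differed by 0.07 ± 0.051 (95% interval −0.04 to 0.18, adjusted p = 0.27), and passed only after the correction for gene length (0.17, adjusted p = 0.023).

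Glutaredoxins, which use glutathione to reduce protein thiols or to carry iron-sulphur clusters, had 2 members that rose and 2 that did not pass. Glrx3, a monothiol glutaredoxin of iron metabolism, was at 212 and 207 CPM in siScramble-treated and at 233 and 259 CPM in siTbk1-treated cells (0.23 ± 0.059, adjusted p = 0.0062), with split reads, and did not pass without siTbk1 replicate 3 (adjusted p = 0.093). Glrx5, its mitochondrial counterpart, was higher by 0.19 ± 0.075 (adjusted p = 0.049). That result was lost without siScramble replicate 3 (adjusted p = 0.2), siTbk1 replicate 2 (0.053) or siTbk1 replicate 3 (0.29), and with DESeq2 (0.14). The dithiol enzymes Glrx (−0.11 ± 0.079, adjusted p = 0.27) and Glrx2 (0.10 ± 0.078, adjusted p = 0.29) did not pass.

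Gstm1, a cytosolic glutathione transferase that conjugates electrophiles, was at 9.66 and 10.1 CPM in siScramble-treated and at 13.9 and 14.2 CPM in siTbk1-treated cells. The groups did not overlap, the log2 fold change was 0.51 ± 0.089 (adjusted p = 0.00058), and the gene was called after the correction for gene length (0.61). Mgst3, a microsomal transferase, was at 3.37 and 3.79 CPM against 3.06 and 3.31 CPM (−0.17 ± 0.15, adjusted p = 0.38), with split reads.

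Of the ferritin subunits, which form the shell that stores iron, one passed the test. Ftl1, the light chain of ferritin, was at 382 and 416 CPM in siScramble-treated and at 284 and 237 CPM in siTbk1-treated cells, with no overlap. Its log2 fold change was −0.61 ± 0.076 (adjusted p = 6.2e-05), a level 1.53-fold lower, and it was the only redox gene called lower. The call lies just past the limit and was lost without siScramble replicate 3 (−0.55), without siTbk1 replicate 3 (−0.49), after the correction for gene length (−0.51) and with glmTreat. Counts of Ftl1 include split reads, and the table lists the gene at chr5:152325871-152326779 (rn6, plus strand), a span of 0.908 kb, while RefSeq on the GRCr8 build lists Ftl1 on another chromosome, so that reads may be shared with a copy and the value is uncertain. Fth1, the heavy chain with the ferroxidase site, was at 548 and 571 CPM against 585 and 610.5 CPM. Its difference of 0.10 ± 0.052 did not pass (adjusted p = 0.15), and its counts include split reads as well. The difference between the changes of both chains was not tested.

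The promoters of these genes were searched for the core of the antioxidant response element (TGACNNNGC) and for the E-box (CACGTG), which factors such as the ChREBP-MLX pair bind as a doublet, on both strands of the RefSeq windows of 300 bases (250 before to 50 after a start site, GRCr8 build). Of the 37 genes tested, 31 had such a window, and Hmox1, Gsr, Txnip, Prdx6, Fth1 and Ftl1 had none. The core was found for 8 of the 31 (25.8%), beside 12.1% of all 33469 windows and 15.6% of the 9690 tested genes with a window. These were Nfe2l2, Hmox2, Gclm, Txnrd1, Prdx1, Prdx4, Prdx5 and Sod2, of which 4 rose, 2 fell and 2 did not pass. Of the 23 genes with a window and no match, 5 rose, 10 fell and 8 did not pass. Among all genes tested, 24.4% rose and 24.8% fell. The difference between redox genes with and without a match was not tested. The E-box was found for Prdx4 and Gpx1, 6.45% of the 31, beside 6.42% of all windows and 9.72% of the tested genes with a window, and did not overlap the core in Prdx4. A match is given as a description of the letters and not as a bound site.

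The stretches around the core are shown for 5 genes in which it lies before the start site, to set the letters beside the changes, and were picked after the values were seen. Capitals mark the core as it reads on the gene's strand, where the match is on the opposite strand. Gclm and Prdx1 rose, Txnrd1 fell, and Hmox2 and Sod2 did not pass. The matches begin 172 (Gclm), 135 (Prdx1), 78 (Txnrd1, in 1 of its 2 windows), 95 (Hmox2, in 1 of its 2 windows) and 35 (Sod2) bases before the start site.
Gclm, chr2:213031943-213031991, plus strand: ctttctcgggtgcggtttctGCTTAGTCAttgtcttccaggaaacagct
Prdx1, chr5:135383751-135383799, plus strand: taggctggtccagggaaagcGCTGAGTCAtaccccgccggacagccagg
Txnrd1, chr7:22755954-22756002, minus strand: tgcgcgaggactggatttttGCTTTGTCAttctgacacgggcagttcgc
Hmox2, chr10:11337679-11337727, minus strand: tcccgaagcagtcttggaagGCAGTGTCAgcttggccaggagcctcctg
Sod2, chr1:50050175-50050223, minus strand: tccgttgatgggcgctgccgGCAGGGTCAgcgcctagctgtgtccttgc

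The window of Nqo1, the redox gene called higher, is shown because it holds no match of the core or the E-box, which says only that these letters are not in these 300 bases.
Nqo1, chr19:52220218-52220517, minus strand: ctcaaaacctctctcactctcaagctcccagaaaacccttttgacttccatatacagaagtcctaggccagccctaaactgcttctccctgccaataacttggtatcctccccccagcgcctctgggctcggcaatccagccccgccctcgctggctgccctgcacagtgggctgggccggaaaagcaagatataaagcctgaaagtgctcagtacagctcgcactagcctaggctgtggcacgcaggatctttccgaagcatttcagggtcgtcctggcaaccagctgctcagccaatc

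Beyond the 42 names, a wider list of 151 genes of the same pathways was examined, of which 135 were in the table and 131 were tested. Of these, 6 were called higher (4.58%, against 4.81% of all genes) and 4 lower (3.05%, against 6.18%). By the adjusted p, 40 rose (30.5%, against 24.4%) and 28 fell (21.4%, against 24.8%), and 63 did not pass, with a median log2 fold change of 0.025. The counts of its groups, of 8 to 20 genes each, are to be read against the same shares of all genes. Whether any group differs from all genes was not tested. Among partners of NRF2 (11 tested, 2 rose, 3 fell), the small MAF protein Mafg was called lower, at 28.5 ± 2.20 CPM in siScramble-treated and 18.9 ± 1.34 CPM in siTbk1-treated cells (mean ± SD, n = 2), a log2 fold change of −0.59 (adjusted p = 0.00013) that lies just past the limit and was −0.49, under it, after the correction for gene length. Mafk, another small MAF protein, fell by 0.42 on the log2 scale, and Cul3, the scaffold of the ligase that KEAP1 serves, rose by 0.40 with split reads. Sqstm1 fell by 0.36 (adjusted p = 0.00017) and Gsk3b rose by 0.42 (adjusted p = 0.0002), both with split reads. Keap1, Mafg, Mafk and Sqstm1 thus fell while Nfe2l2, Cul3 and Gsk3b rose.

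Supply of glutathione precursors and its breakdown (12 tested, 2 rose, 3 fell) included Slc7a11, the cystine transporter subunit, which rose by 0.37 ± 0.11 (adjusted p = 0.016) but did not pass after the correction for gene length (0.28, adjusted p = 0.06), and Ggt7, a member of the γ-glutamyltransferase family, called lower (89.8 ± 7.90 against 54.0 ± 1.96 CPM, log2 fold change −0.73, adjusted p = 1e-05). In the group of NADPH supply and pentose phosphate enzymes (15 tested, 7 rose, 2 fell), Rpe, ribulose-phosphate epimerase of the non-oxidative branch, was called higher, at 15.7 ± 2.13 against 33.3 ± 0.446 CPM (log2 fold change 1.08, adjusted p = 4e-06). Idh1, the cytosolic NADP-dependent isocitrate dehydrogenase, was also called higher (78.8 ± 3.42 against 129 ± 4.33 CPM, 0.71, adjusted p = 4e-06). Pgls, the lactonase of the oxidative pentose phosphate branch, was called lower (7.75 ± 0.246 against 4.74 ± 0.599 CPM, −0.70, adjusted p = 0.00063). Rpe thus moved opposite to its neighbours Tkt, Taldo1 and Pgls in the pentose phosphate pathway.

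Of the 9 endoplasmic reticulum oxidoreductases tested, 2 were called higher (22.2%, against 4.81% of all genes). By the adjusted p, 4 rose (44.4%, against 24.4%) and 1 fell (11.1%, against 24.8%). Ero1a and Ero1b, the oxidases that pass electrons from protein disulphide isomerase to oxygen and release peroxide, had log2 fold changes of 0.63 (50.7 ± 1.85 against 78.7 ± 1.17 CPM, adjusted p = 9.2e-06) and 0.77 (34.2 ± 0.727 against 58.3 ± 1.48 CPM, adjusted p = 3.5e-06). Tmx4, a thioredoxin-like membrane protein, was called higher, at 258 ± 10.1 against 444 ± 13.5 CPM (0.78, adjusted p = 1.1e-06). Tmx4 was listed among 20 other thiol and methionine sulfoxide reductases, of which 7 rose and 2 fell.

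Selenop, the secreted selenium carrier, was called higher (19.0 ± 0.385 against 32.9 ± 2.87 CPM, log2 fold change 0.79, adjusted p = 1.5e-05). Its group holds 16 tested genes of selenoprotein synthesis and other selenoproteins, of which 6 rose and 5 fell. Aldh2, the mitochondrial aldehyde dehydrogenase, was called lower (3.28 ± 0.136 against 1.96 ± 0.00352 CPM, −0.74, adjusted p = 0.0027), in a group of 15 quinone, carbonyl and haem enzymes of which 2 rose and 5 fell. In 3 further groups no gene was called. These were other glutathione transferases and peroxidases (15 tested, 5 rose, 2 fell), iron handling (10 tested, 3 rose, 2 fell) and regulators and relatives of Txnip (8 tested, 2 rose, 3 fell). In the last of these, Arrdc4, an arrestin relative of Txnip, fell by 0.21 on the log2 scale (adjusted p = 0.0066, with split reads). Mlxip fell by 0.56 and Arrdc1 by 0.30 (adjusted p = 0.0039). Itch rose by 0.51 (adjusted p = 4.2e-05), and Mlx, the partner of MLXIP, by 0.39. The pathway genes of this paragraph other than Selenop and Aldh2 were picked for mention after their values were seen. So were Rpia, Selenof, Selenot, Sephs2, Txnrd3, Selenon, Selenom, Mafk, Cul3, Sqstm1, Gsk3b and Slc7a11 above.

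Log2 fold changes in these libraries varied with genomic span, the distance from a gene's listed start to its end. When all genes tested were divided by span into 10 groups of about equal size, the median log2 fold change ran from −0.127 in the group with a median span of 3.47 kb to 0.125 in that of 85.8 kb. The redox genes had a median span of 12.5 kb, against 20.1 kb for all genes, and none was in the 2 groups with the longest spans. After each library's trend along span was removed, the median log2 fold change of the 37 genes was −0.032. Nfe2l1, Txn1 and Prdx6 no longer passed the adjusted p and Prdx3, Sod2 and Fth1 passed it, each of the last 3 with a higher value in siTbk1-treated cells. The part of gene length in the changes was not tested beyond this correction.

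**Figure D4:**
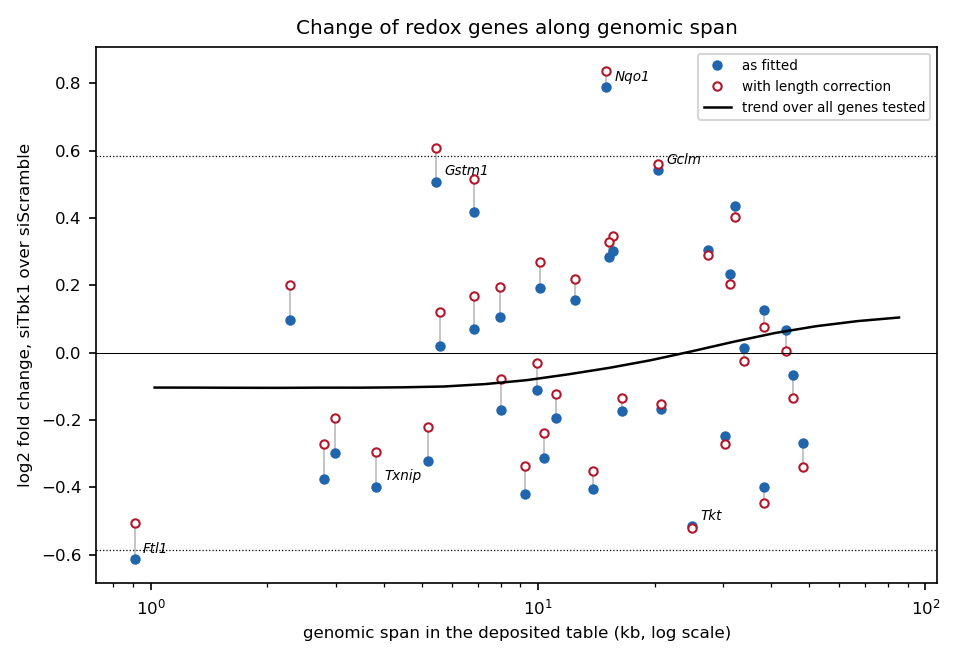
Log2 fold change, siTbk1 over siScramble, of 36 redox genes against genomic span in kb (log axis), as fitted (filled) and with the length correction (open), with the trend over all genes tested as a line and dotted lines at a fold change of 1.5. Gpx1 is left out; with the correction Ftl1 moves from −0.61 to −0.51 and Gstm1 from 0.51 to 0.61.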

How the data were processed

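Stranded libraries of polyadenylated RNA from 4 samples were used. The deposited table gives the authors' estimated counts for each gene, which are not scaled between samples, with gene names and positions. Reads that match several genes can be split between them, so counts of similar genes are less certain. The submitters' processing notes name STAR 2.6.1d, Partek and the rn6 build, without their roles.

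The estimated counts were rounded, filtered with filterByExpr of edgeR 4.0.16 (minimum count 10), which removed 1219 genes and left 13953, and scaled with TMM factors. Groups were taken from the labels and compared with edgeR's quasi-likelihood test in a model with the treatment alone, followed by Benjamini-Hochberg adjustment. All adjusted p-values in the text are from this fit unless another is named. Standard errors were derived from each change and its F statistic. CPM values used the TMM-scaled library sizes, or plain library totals for the cell type markers. They are not divided by transcript length and, apart from the marker sums, were compared only within a gene. R 4.3.3, limma 3.58.1, DESeq2 1.42.0, Python 3.11.15 and matplotlib 3.10.9 were used. Scripts were tested on simulated data.

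The alternatives were a replicate block, DESeq2, limma-voom, upper quartile scaling, library size alone, dropping the filter, asking for 10 counts in every sample, no fold change limit, glmTreat, a correction of each library for its loess trend (span 0.5) along log10 genomic span, with and without the block, and leaving out each sample. With 2 samples per group, the number of samples limits precision, and depth limits mainly Gpx1 and Gpx8.

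The genes and lists were chosen with earlier results of these data known. Values in every sample are given for redox genes that were called, or had an adjusted p under 0.05 and an absolute log2 fold change of at least 0.4, and for the gene with the highest CPM in each subgroup. Of the wider list, called genes are named. Values of other genes were added. Promoter sequences are RefSeq's on GRCr8, matched by symbol for 31 of 37 genes. Their coordinates belong to that build and gene positions to rn6. The replicate libraries of a group differed by more than sampling noise and were counted separately.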

Additional observations from a re-analysis of the deposited data

How the results depend on the processing

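Of the 554 values of single redox genes under an alternative, 513 kept their direction and their side of the threshold, 6 lost a call, 27 gained one, of which most came with no fold change limit, and 8 changed sign. By the adjusted p alone and leaving aside the fold change limits, 18 of the 25 genes that passed (8 that rose, 10 that fell) passed in each of 13 alternatives. The others, Nfe2l1, Txn1, Txnrd2, Prdx5, Prdx6, Glrx3 and Glrx5, did not in at least 1. Without a fold change limit, 3405 genes were higher and 3459 lower in place of 671 and 862, with 10 and 15 redox genes and 40 and 28 genes of the wider list. With glmTreat against a fold change of 1.5, 163 genes were higher and 101 lower, with 0 redox genes in either direction and 2 and 0 genes of the wider list, since this test asks for more than the limit. With the gene length correction, with or without the replicate block, 2 redox genes were called higher (Nqo1 and Gstm1) and 0 lower, and the median log2 fold change of the redox genes was −0.032 without and −0.033 with the block. That median was −0.12 with library size alone and −0.033 with a minimum of 10 counts in every sample, which removed Gpx1. With DESeq2 the calls were 495 and 738. Leaving out 1 sample, where the lone sample of a group is assumed to vary like the other group, gave 552 to 756 genes called higher and 574 to 1159 lower, 1 to 2 redox genes higher and 0 to 2 lower, 8 to 11 and 11 to 14 by the adjusted p alone, a redox median of −0.086 to −0.061, 6 to 8 genes of the wider list higher and 2 to 8 lower, and a log2 fold change of Tbk1 of −2.16 to −2.01. Values near 0 changed sign. For Bach1 they were −0.034 with library size alone, −0.024 with the length correction, −0.031 with the correction and the block, and −0.16 to 0.15 with a sample left out. For Sod1 they were −0.027 with library size alone and −0.012 to 0.041 with a sample left out, and for Gsr −0.0036 to 0.12 with a sample left out. The cause of these shifts was not tested. The replicate numbers are not said to pair the samples. Across genes, the deviations of same-numbered samples gave Pearson's r of 0.00412 and Spearman's rho of −0.195, and r was −0.386 among 7940 genes averaging 4 log2 CPM or more. With the replicate block, 699 genes were called higher and 898 lower, 1 redox gene each way, with a redox median of −0.068, and 9 and 12 passed the adjusted p alone, without Nfe2l1, Txn1, Prdx6 and Glrx5.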
